A study of Schizosaccharomyces pombe with 70 samples.

Results

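The second hour of hydroxyurea in the rad3 mutant of fission yeast (Schizosaccharomyces pombe) was examined by comparing rad3 cultures at 120 min with rad3 cultures at 60 min. The arrays compared were taken by their sample labels, 6 of the 70 in the series, 3 at each time. The comparison itself was chosen with earlier results of these data known. At both times the rad3 cultures were asynchronous, in mid log phase and in 8 mM hydroxyurea. Every array set cDNA of a sample (Cy5) against cDNA of untreated wild-type cells (Cy3), so a value is a log2 ratio to untreated wild type. Wild-type, cds1 and chk1 cultures at 60 and 120 min of the same treatment, also 3 arrays a time, served as comparisons. A rad3 sep1 double mutant had 2 arrays a time. The labels name the mutated genes and give neither alleles nor clones.

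Hydroxyurea inhibits ribonucleotide reductase, so that replication forks stall for want of deoxynucleotides. Rad3, the fission yeast relative of human ATR, is the kinase at the top of the checkpoint that then stabilises forks and holds back mitosis, and it acts mainly through the effector kinase Cds1. Its other effector kinase, Chk1, serves mainly the DNA damage branch. Cells without Rad3 do not restrain mitosis when replication is blocked. Transcription in the fission yeast cycle runs in waves. The factor MBF drives G1/S genes, and the forkhead factors Sep1 and Fkh2 regulate genes of mitosis and septation. In RNA from a whole culture, a larger share of cells at one stage and more RNA per cell at that stage cannot be told apart.

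Replicates 1 and 3 of rad3 at 60 min differed by no more than noise between probes. The difference of their log2 ratios had an SD of 0.0664 and was unrelated from 1 probe of a gene to the other (r = 0.0317), while the other rad3 pairs had r of 0.223 to 0.452. They were averaged and counted as 1 sample, which left 2 samples at 60 min and 3 at 120 min, of 61 in all. The rad3 transcript itself was low in the 5 samples, at -1.60 and -2.55 at 60 min and -1.88, -2.74 and -2.08 at 120 min, against means of -0.13 ± 0.07 (SD, n = 2) and -0.14 ± 0.15 (n = 3) in wild type. It was lower in rad3 than in wild type by -1.94 at 60 min (adjusted p = 9.67e-05, limma) and by -2.10 at 120 min (adjusted p = 8.18e-08). Without replicate 2 of rad3 at 60 min the first of these was -1.47 with an adjusted p of 0.0628. The 15 rad3 arrays had medians of -0.06 to 0.02. The SD of the log2 ratios over all genes, each the mean of its 2 probes, was 0.394 to 0.412 on the 60 min arrays. On the 120 min arrays it was 0.495 to 0.562, so the 120 min arrays were wider as a whole.

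During the second hour the transcripts that rose in rad3 cells included those of detoxification and stress enzymes and, beside them, those of septation, mitosis and the cell wall. Those that fell included genes of translation, ribosome production and sulfur metabolism. In limma fits with Benjamini-Hochberg adjustment at a threshold of 0.05, 83 genes were higher at 120 min than at 60 min (1.69% of 4921 tested) and 31 were lower (0.63%), 114 in all (2.32%). At least 2-fold changes were reached by 10 of the higher genes (0.203%) and by 1 of the lower ones, rpl1603 (0.0203%). The values of the 60 and 120 min samples did not overlap for any of the 114 genes. Over all genes tested, 13% had their 120 min samples all above the 60 min samples and 18.5% all below, and the median change was -0.02. Quantile normalization, which forces all arrays to the same width, left 2 calls, 0 higher and 2 lower, although 110 of the 114 genes kept their sign. Under it gst2 rose by 0.71 in place of 1.53 and gas5 by 0.52 in place of 1.23, so the size of the increases depended on whether the wider spread at 120 min was retained. Without the averaged sample of replicates 1 and 3 at 60 min the number of calls was 27, 47 in the absence of replicate 2 of that time, and 73 in the absence of replicate 2 at 120 min.

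Among the genes that rose in rad3 and changed differently from the other strains were several of septation, mitosis and the cell wall. The gene gas5 encodes a glucanosyltransferase that remodels cell wall glucan. Its log2 ratio was 0.72 and 0.54 at 60 min and 2.06, 1.71 and 1.81 at 120 min, a rise of 1.23 ± 0.12 (SE, adjusted p = 1.49e-09, limma). A related glucanosyltransferase gene, gas1, was at 0.57 and 0.18 at 60 min and at 1.18, 0.98 and 1.12 at 120 min, a rise of 0.72 ± 0.18 (adjusted p = 0.0148). The glucanase gene exg1 was at 1.04 and 0.79 and then at 2.03, 1.63 and 1.73, a rise of 0.88 ± 0.14 (adjusted p = 2.60e-05). In these 3 genes the lowest 120 min sample lay above the highest 60 min sample, as in every gene called higher and in 13% of all genes. The amylase homologue gene aah1 rose by 1.00 ± 0.18 and the chitin synthase homologue gene chs2 by 0.77 ± 0.17.

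Regulators of mitosis and parts of the division machinery rose in the same interval. The gene slp1 encodes the activator of the anaphase-promoting complex, the ubiquitin ligase that starts anaphase. It was at 0.60 and 0.68 at 60 min and at 1.32, 1.54 and 1.21 at 120 min, a rise of 0.72 ± 0.13 (adjusted p = 0.000348, limma). The cell cycle gene spo12 was at 0.48 and 0.53 and then at 1.59, 1.46 and 1.30, a rise of 0.94 ± 0.15 (adjusted p = 6.56e-05). The septation gene uds1 was at 0.57 and 0.67 and then at 1.57, 1.58 and 1.17, a rise of 0.82 ± 0.13 (adjusted p = 2.53e-05). All 3 genes were higher in each 120 min sample than in either 60 min sample, as was every gene called higher and 13% of all genes. The gene cdc15, for an F-BAR protein of the contractile ring, rose by 0.51 ± 0.14 (adjusted p = 0.0363), and SPOM_SPCC306.11 rose by 0.62 ± 0.14 (adjusted p = 0.00498). Also called were pxl1, which encodes a paxillin-like protein of the ring, at 0.65, and pun1 at 0.78, both chosen after their values were seen.

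Read as lists, these groups moved only in part. Over all genes 1.69% were higher and 0.63% lower. Of 32 mitosis and cytokinesis genes 4 were higher and 0 lower (slp1, spo12, chs2 and cdc15), with a median of 0.10. Of 19 cell wall synthesis genes 4 were higher and 0 lower (gas5, chs2, gas1 and the alpha-glucan synthase homologue gene mok12, at 0.50 ± 0.13), with a median of 0.14. The gene mok12 rose by 0.49 in cds1 as well, and its change in rad3 differed from that of no other strain past the threshold. The glucan synthase genes bgs1, bgs2, bgs3 and bgs4, chosen after their values were seen, had changes between -0.16 and 0.23, none past the threshold. The polo kinase gene plo1 changed by 0.24 and the contractile ring myosin gene myo2 by -0.23, and neither passed. Both names were chosen after their values were seen. The calls of gas5, exg1, slp1, spo12 and uds1 held without each of the 5 rad3 samples in turn. The call of SPOM_SPCC306.11 was lost without the averaged 60 min sample, that of aah1 without replicate 2 at 60 min, that of chs2 without the averaged sample or replicate 2 at 120 min, that of gas1 without replicate 2 at 60 min or replicate 1 at 120 min, and those of cdc15 and mok12 without any 1 sample other than replicate 3 at 120 min.

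Between 0 and 60 min these genes changed little in rad3, though not all were flat within that hour. At 30 min slp1 was at 1.04, 0.99 and 0.94 and gas5 at 0.86, 0.83 and 0.93, above their 60 min samples. For exg1, spo12, uds1 and chs2 the samples of 30 and 60 min overlapped. These differences from 30 min were not tested. From 0 to 60 min exg1 changed by 0.07, gas5 by -0.04, slp1 by -0.01, spo12 by 0.30, uds1 by 0.07, aah1 by 0.04, chs2 by 0.07 and gas1 by -0.12, and none of the 8 passed. Over all genes 143 did (2.91%), 105 higher (2.13%) and 38 lower (0.772%), with at least 2-fold rises in 15 (0.305%). The 143 became 35 if replicate 2 at 60 min was left out, 74 if the averaged sample was, and 72 if replicate 3 at 0 min was. Both intervals share the 60 min samples, so their values are given side by side and not compared by a test.

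In wild-type, cds1 and chk1 cells exg1, gas5, gas1, aah1, chs2, slp1, spo12, uds1, cdc15 and SPOM_SPCC306.11 fell during the second hour, each past the threshold in each strain except chs2 in cds1 (-0.46, adjusted p = 0.094, limma). The level of exg1 went from 0.64 ± 0.00 (SD, n = 2) to -1.35 ± 0.08 (n = 3) in wild type, from 0.72 ± 0.12 to -0.79 ± 0.11 (n = 3 each) in cds1, and from 0.66 ± 0.17 (n = 2) to -1.35 ± 0.10 (n = 3) in chk1. In rad3 it went from 0.92 ± 0.18 (n = 2) to 1.80 ± 0.21 (n = 3). The 4 strains were thus within 0.28 of each other at 60 min and 3.15 apart from lowest to highest at 120 min. Tested as a difference between the changes, the second hour of rad3 exceeded that of wild type by 2.87 ± 0.19 (SE, adjusted p = 2.37e-15, limma), that of cds1 by 2.39 ± 0.18 (adjusted p = 2.60e-13) and that of chk1 by 2.88 ± 0.19 (adjusted p = 9.54e-16). The 3 differences share the rad3 samples.

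Other genes named above also passed these tests. For gas5 the difference was 2.32 ± 0.17 from wild type, 1.75 ± 0.17 from cds1 and 2.38 ± 0.17 from chk1, where gas5 fell by 1.09, 0.52 and 1.15. For slp1 it was 2.35 ± 0.18, 1.96 ± 0.17 and 2.42 ± 0.18. For spo12 it was 2.23 ± 0.22, 1.71 ± 0.21 and 2.16 ± 0.22. For uds1 it was 2.21 ± 0.18, 1.97 ± 0.17 and 2.83 ± 0.18. For SPOM_SPCC306.11, which fell by 2.12 in wild type, it was 2.74 ± 0.20, 1.94 ± 0.19 and 2.64 ± 0.20. The differences of aah1, chs2, cdc15 and gas1 were smaller, between 1.03 (cdc15, from cds1) and 1.94 (gas1, from chk1), and each passed the threshold against each of the 3 strains. Those of exg1, gas5, slp1, spo12 and SPOM_SPCC306.11 from wild type passed under every alternative tried, quantile normalization included.

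Some further genes differed between strains without a rise past the threshold in rad3. The gene eng1 encodes the endoglucanase that dissolves the primary septum. It changed by 0.13 ± 0.15 in rad3 (adjusted p = 0.826, limma) against -2.09 ± 0.15 (wild type), -1.60 ± 0.14 (cds1) and -2.24 ± 0.15 (chk1), with differences of 2.22, 1.73 and 2.37. It was chosen after its values were seen, as were the mitotic forkhead gene fkh2 and the myosin gene myp2 below. SPAC23A1.01c, of unstated function, changed by 0.41 in rad3 (adjusted p = 0.0828) and differed by 2.54 ± 0.18 from wild type, 1.15 ± 0.17 from cds1 and 2.42 ± 0.18 from chk1. The gene fkh2 changed by 0.37 in rad3 (adjusted p = 0.103), and this change differed from that in cds1 by 0.92 and from that in chk1 by 0.98. For myp2 the same differences were 0.93 and 1.19.

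The gene adg1, which encodes a cell surface glycoprotein, fell in rad3. Its level was 0.40 and 0.27 at 60 min and -0.44, -0.50 and -0.13 at 120 min, a fall of 0.69 on the log2 scale (SE 0.18, adjusted p = 0.0219, limma). Its 120 min samples all lay below zero and its 60 min samples above. In wild type and chk1 it fell by 2.08 and 2.01, so that rad3 still differed by 1.39 ± 0.25 and 1.32 ± 0.25. In cds1 it fell by 0.93, and the difference of 0.24 ± 0.24 did not pass (adjusted p = 1, limma). The call of adg1 in rad3 was lost without any 1 of 4 of the 5 samples, while its differences from wild type and chk1 had adjusted p of 0.000389 and 0.00102.

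**Figure D1:**
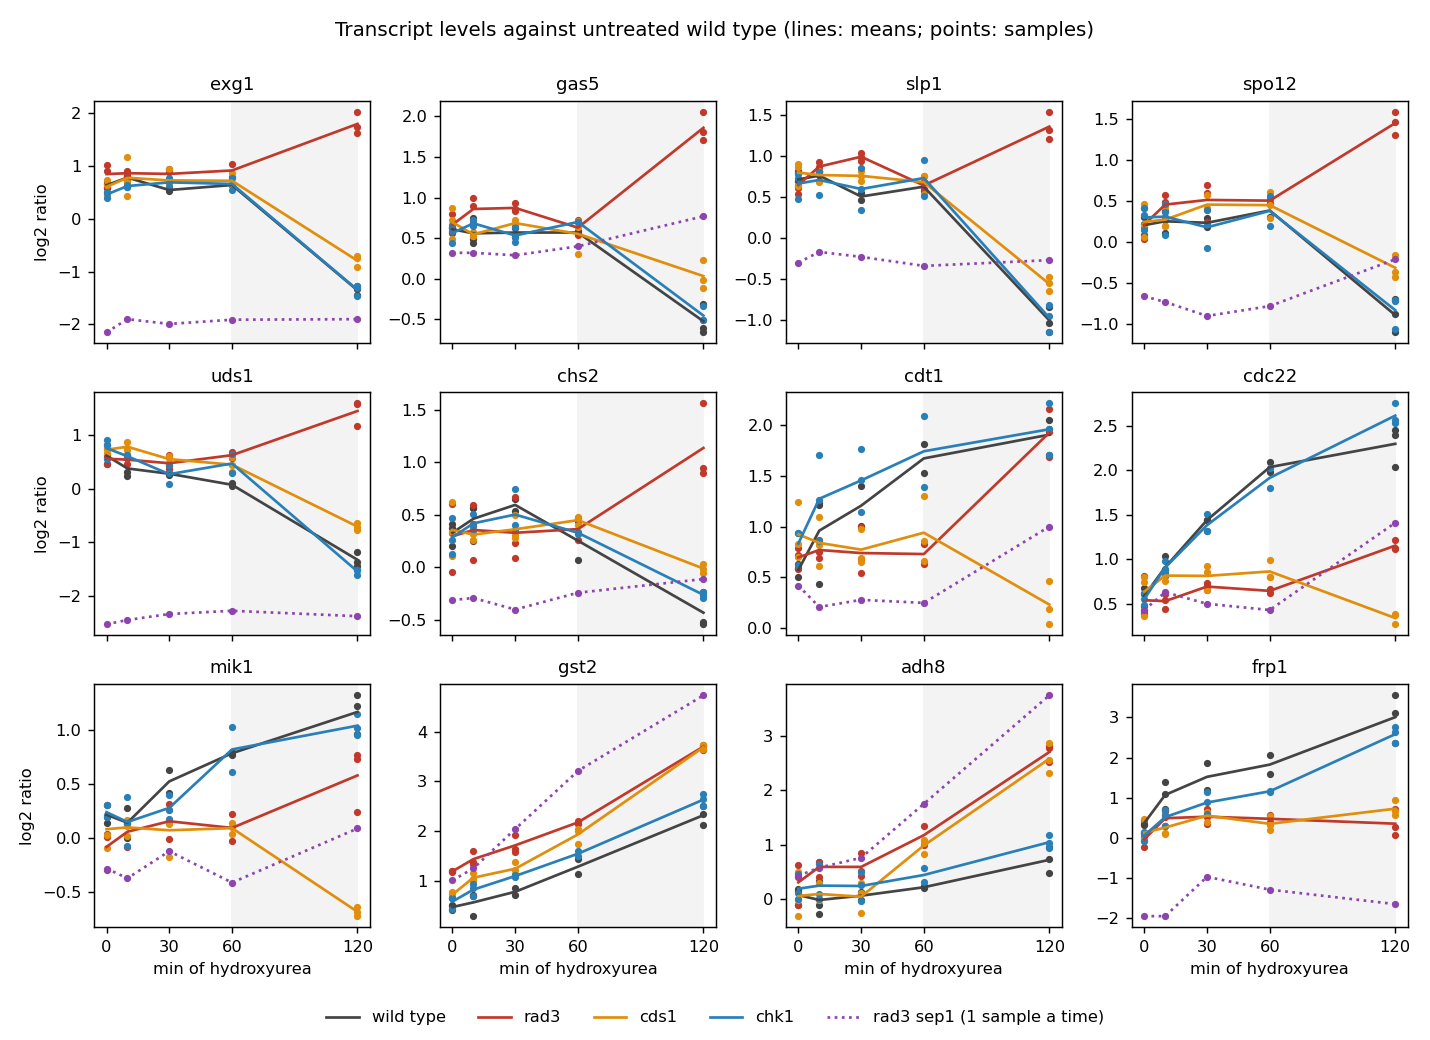
Log2 ratio to untreated wild type (vertical axis) against minutes of hydroxyurea for 12 genes in 5 strains; points are samples, lines join the means, and the grey band is the second hour. In exg1, gas5, slp1, spo12, uds1 and chs2 the rad3 line turns up after 60 min while those of wild type, cds1 and chk1 turn down; in cdt1, cdc22 and mik1 the rad3 line turns up and the cds1 line down; gst2 and adh8 are highest at 120 min in every strain; frp1 is flat in rad3 between 60 and 120 min.

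In rad3 sep1 cells, which are mutant for the forkhead factor as well, the arrays of a time were near-identical and counted as 1 sample, so there is no test. The level of exg1 was -1.91 at 60 min and -1.90 at 120 min and that of uds1 -2.27 and -2.37. The slp1 transcript was at -0.34 and -0.27. These genes thus stood low in the double mutant at both times. Others were higher in its 120 min sample: spo12 went from -0.78 to -0.21, gas5 from 0.40 to 0.77 and SPOM_SPCC306.11 from -3.25 to -2.36. In rad3 alone the 120 min means of these 3 genes were 1.45, 1.86 and 1.34.

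Of the 16 G1/S genes measured, the targets of MBF, 6 were higher in rad3 at 120 min and 0 lower, beside 1.69% higher over all genes. Their median was 0.34 (0.22 under quantile normalization) against -0.02 over all genes, and 13 were above zero. The largest change was in cdt1, which encodes a factor that loads the replicative helicase at origins. Its level was 0.63 and 0.83 at 60 min and 1.93, 2.16 and 1.68 at 120 min, a rise of 1.19 ± 0.23 (adjusted p = 0.000603, limma), and the groups did not overlap. Its call was lost without the averaged sample of replicates 1 and 3 at 60 min. The gene cdc22, for the large subunit of ribonucleotide reductase, was at 0.67 and 0.62 and then at 1.11, 1.22 and 1.13, a rise of 0.51 ± 0.12 (adjusted p = 0.0116). All its 120 min samples were above its 60 min samples. The same held for cdt1, for every other gene called higher and for 13% of all genes.

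The other 4 called G1/S genes were cdt2, for a ubiquitin ligase adaptor, at 0.44 ± 0.11, the cohesin gene rad21 at 0.48 ± 0.13, the MBF corepressor gene nrm1 at 0.48 and the licensing gene cdc18 at 0.54, the last 2 named after their values were seen. The calls of cdc22, cdt2 and rad21 were lost without either sample of 60 min, that of cdc22 also without replicate 2 at 120 min, that of cdt2 without replicate 3, and that of rad21 without replicate 1 or 2. In wild type cdt1 stood at 1.67 ± 0.20 (n = 2) at 60 min and 1.90 ± 0.18 (n = 3) at 120 min, and cdc22 at 2.03 ± 0.08 and 2.30 ± 0.22. At 60 min rad3 was below wild type by -0.94 for cdt1 (adjusted p = 0.0296, limma) and by -1.39 for cdc22 (adjusted p = 3.94e-10). At 120 min the difference was 0.02 for cdt1 (adjusted p = 0.964) and -1.14 for cdc22 (adjusted p = 1.95e-11). After the second hour the rad3 mean of cdt1 was thus at the wild-type mean, and that of cdc22 was below it.

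No G1/S gene changed differently in rad3 and wild type, or in rad3 and chk1, past the threshold. Against cds1, where the median of the list was -0.23, 3 of the 16 did, beside 0.528% of all genes. The difference was 1.90 ± 0.30 for cdt1 (adjusted p = 3.60e-05, limma), which fell by 0.71 in cds1, and 1.03 ± 0.16 for cdc22 (adjusted p = 3.60e-05), which fell by 0.52. The gene mik1 encodes an inhibitory kinase of Cdc2. It changed by 0.48 in rad3 (adjusted p = 0.0732) and by -0.77 in cds1, a difference of 1.25 ± 0.20. It was named after its values were seen.

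The 3 largest increases in rad3 were those of gst2, adh8 and SPOM_SPCC663.08C. The fitted changes of these and of 7 further genes with large increases, described here together, were above zero in wild type, cds1 and chk1 as well. The glutathione S-transferase gene gst2 was at 2.15 and 2.20 at 60 min and at 3.74, 3.64 and 3.72 at 120 min, a rise of 1.53 ± 0.12 (adjusted p = 8.47e-13, limma). In the same hour gst2 rose by 1.03 in wild-type cells, by 1.75 in cds1 cells and by 1.09 in chk1 cells. The alcohol dehydrogenase gene adh8 was at 1.00 and 1.35 and then at 2.51, 2.81 and 2.78, a rise of 1.53 ± 0.21 (adjusted p = 4.81e-06), beside 0.50, 1.59 and 0.60 in wild type, cds1 and chk1. For both genes the 3 late samples were close to each other and far above the early ones, and neither differed from any of the 3 strains past the threshold.

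The uncharacterised gene SPOM_SPCC663.08C was at 1.22 and 1.44 and then at 2.68, 3.02 and 2.75. Its rise of 1.49 ± 0.17 exceeded that of wild type by 0.94 ± 0.24 (adjusted p = 0.0408, limma). The metallothionein gene zym1 went from 2.89 ± 0.15 (SD, n = 2) at 60 min to 3.99, 4.14 and 4.09 at 120 min, a rise of 1.19 ± 0.24 whose call was lost without replicate 2 at 60 min. The pyridoxal reductase gene plr1 was at 1.82 and 1.66 and then at 2.79, 2.41 and 3.64, a rise of 1.20 ± 0.18. Replicate 3 at 120 min stood above the other samples of that time, and the groups did not overlap, as in every called gene. SPOM_SPCC18B5.02C rose by 1.08, tsp0 by 1.07, mug135 by 1.04, dhd1 by 0.94 and SPOM_SPAC19G12.09 by 0.87. Of these 5, the calls of SPOM_SPCC18B5.02C and tsp0 were lost without the averaged 60 min sample. The rise of mug135 exceeded that in chk1 by 0.76 ± 0.20 (adjusted p = 0.0436).

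Of 23 oxidative stress genes 5 were higher (beside 1.69% of all genes) and 0 lower, with a median of 0.34 that was 0.02 under quantile normalization. The 5 were gst2, zym1, hsp3101 at 0.68, the membrane transporter gene caf5 at 0.52 and the mitochondrial superoxide dismutase gene sod2 at 0.43. The 2 probes of caf5 differed, and the second alone gave -0.25. Of 18 core environmental stress genes 6 were higher (again beside 1.69%) and 0 lower: plr1, tms1 at 0.72, the trehalose-6-phosphate synthase gene tps1 at 0.71, hsp9 at 0.60, the trehalase gene ntp1 at 0.55 and the peroxidase gene gpx1 at 0.54. The names hsp3101, ntp1 and gpx1 were chosen after their values were seen. The calls of tps1, tms1, hsp9, caf5 and sod2 were lost without the averaged 60 min sample and, tps1 apart, without at least 1 other sample. The median of the 18 stress genes was 0.18, and under quantile normalization it was -0.04, with hsp9 at -0.08 and gpx1 at -0.01. The median of the same list in the first hour had been 0.52.

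Of 18 chaperone genes measured 1 was higher in the second hour (beside 1.69% of all genes), the small heat shock gene hsp16. The median of the list was 0.26 in the first hour and 0.11 in the second, and the latter turned to -0.14 under quantile normalization. The level of hsp16 was 5.27 and 5.43 at 60 min and 5.97, 6.16 and 5.92 at 120 min. It rose by 1.90 ± 0.17 in the first hour (adjusted p = 2.77e-11, limma) and by 0.67 ± 0.17 in the second (adjusted p = 0.0161). The second rise lost its call without either 60 min sample or without replicate 2 at 120 min, and it was 0.00 under quantile normalization. Quantile normalization gives each rank the same value on every array, so it cannot show a rise of a gene that keeps its rank. The value of 0.00 therefore does not decide whether hsp16 rose. The second-hour changes of hsp10 (0.40), cdc37 (0.42) and psi1 (0.28) did not pass, and that of psi1 was -0.26 under quantile normalization.

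**Figure D2:**
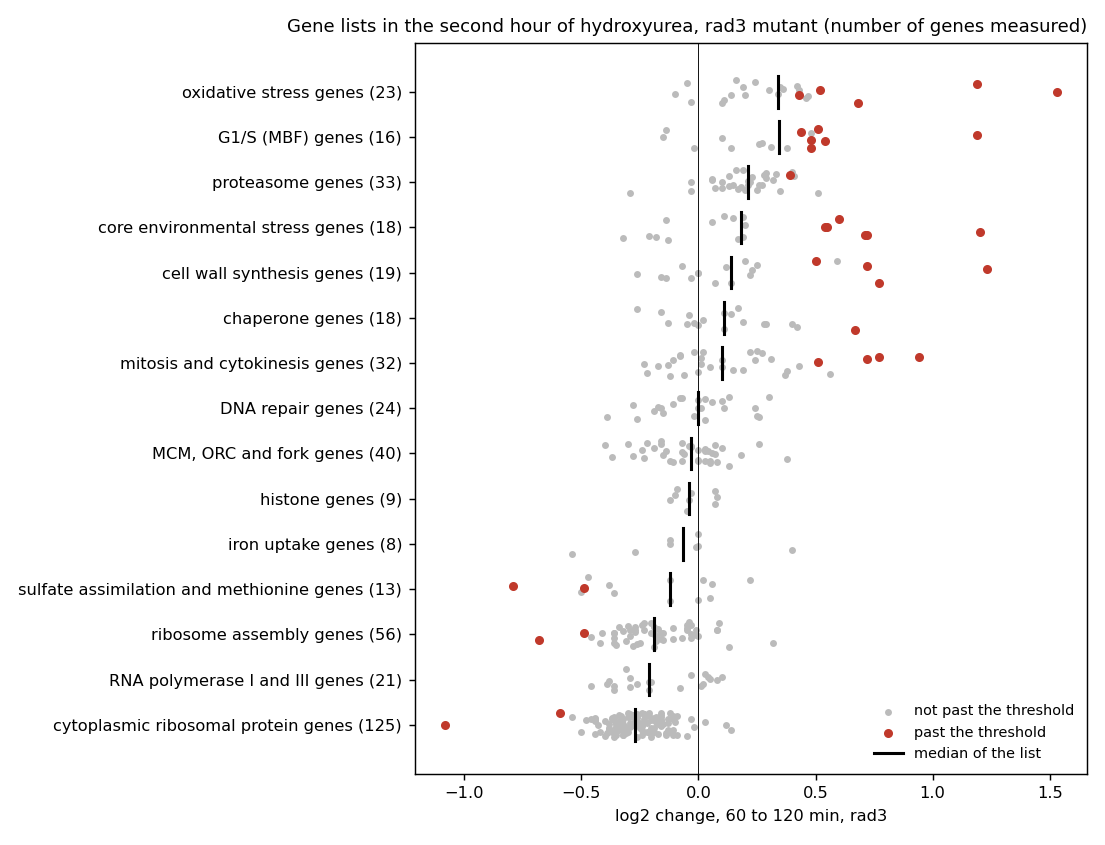
Log2 change from 60 to 120 min in rad3 (horizontal axis) of the members of 15 gene lists, ordered by median; each point is a gene, red points passed the threshold, black bars are list medians, and the number of genes measured is in brackets. Red points lie to the right in the G1/S, oxidative stress, core stress, cell wall and mitosis lists and to the left in the sulfate, ribosome assembly and ribosomal protein lists.

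Genes that fell in rad3 during the second hour included those of translation, ribosome production and amino acid synthesis. The ribosomal protein gene rpl1603 was at -0.22 and -0.33 at 60 min and at -1.48, -1.42 and -1.15 at 120 min, a fall of 1.08 on the log2 scale (SE 0.14, adjusted p = 2.53e-06, limma). In the other strains rpl1603 fell by 0.87 (wild type), 0.96 (cds1) and 0.67 (chk1). The gene tif303, for a subunit of translation initiation factor eIF3, was at 0.24 and 0.05 and then at -0.86, -0.51 and -0.86, a fall of 0.89 (SE 0.14, adjusted p = 2.60e-05). In wild type tif303 changed by -0.14. The difference of -0.75 ± 0.19 had an adjusted p of 0.0452 (limma), and this call was lost without any 1 of 9 of the 10 samples. For both genes the 120 min samples were all below the 60 min samples, as in every gene called lower and in 18.5% of all genes. Both calls in rad3 held without each rad3 sample and under quantile normalization, where they were the 2 calls left.

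Of 125 cytoplasmic ribosomal protein genes 0 were higher and 2 lower (beside 0.63% of all genes), rpl1603 and rpp0, with a median of -0.27, and 3 were above zero. Of 56 ribosome assembly genes 0 were higher and 2 lower, the pseudouridine synthase gene cbf5 at -0.68 ± 0.19 and the rRNA processing gene rrp12 at -0.49 ± 0.12, with a median of -0.19. None of 21 RNA polymerase I and III genes passed, and their median was -0.21. Under quantile normalization the last 2 medians were -0.08 and -0.10. The gene spp27, for a part of an RNA polymerase I factor, fell by 0.56, and the tRNA methylation gene trm732 by 0.56. The calls of rpp0, cbf5, rrp12, spp27 and trm732 were each lost without at least 1 of the 2 samples of 60 min. Genes of ribosomal proteins include near-identical copies, so single values are uncertain.

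In sulfur and amino acid metabolism the homocysteine synthase gene met17 was at 0.40 and 0.37 at 60 min and at -0.49, -0.45 and -0.25 at 120 min, a fall of 0.79 (SE 0.16, adjusted p = 0.00144, limma). The sulfide oxidising gene hmt2 was at 0.81 and 0.61 and then at -0.19, -0.11 and 0.08, also a fall of 0.79 (SE 0.16, adjusted p = 0.00227). The groups did not overlap in either, as in every called gene. The sulfite reductase gene met10 fell by 0.49. The genes met17 and met10 were the 2 lower genes of 13 on the sulfate list (beside 0.63% of all genes), whose median was -0.12. The glutamate synthase gene glt1 fell by 0.71 and met1 by 0.57. Without the averaged 60 min sample the calls of met17, hmt2, met10 and met1 were lost, and without replicate 2 at 60 min those of glt1, met10 and met1. The mating pheromone precursor gene mfm2 fell by 0.62 in rad3, beside falls of 1.02, 1.01 and 1.04 in wild type, cds1 and chk1, and lost its call without the averaged sample. SPOM_SPBPB10D8.01 fell by 0.78, SPOM_SPAC29E6.06C by 0.63 and SPOM_SPBC365.16 by 0.54, and only the first of the 3 held without each sample.

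On several further lists few or no genes passed in rad3. None of 40 MCM, ORC and fork genes and none of 24 DNA repair genes did, with medians of -0.03 and 0.00; the members with the smallest p were psf2 at -0.37, ssb1 at 0.38 and orc4 at -0.28, and swi10 at -0.39, msh6 at 0.26 and mus81 at 0.24. None of 9 histone genes passed, with changes of -0.12 to 0.08. Of 33 proteasome genes 1 was higher, the core subunit gene pre1 at 0.39 ± 0.11, a share close to the 1.69% over all genes, while 30 were above zero and the median was 0.21, or 0.06 under quantile normalization. The next, pre3 at 0.40 and pup3 at 0.51, did not pass. The call of pre1 was lost without any 1 of 4 of the 5 samples. None of 8 iron uptake genes passed, with a median of -0.07, or -0.14 under quantile normalization. Among them str1 changed by -0.54 and sib1 by 0.40. On the 18 other lists, 8 genes were higher and 3 lower in all, each counted 1 time.

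Over all genes, the second hour of rad3 differed from that of wild type in 38 genes (0.772%), 31 of them with the higher change in rad3 (0.63%) and 7 with the lower (0.142%). It differed from that of cds1 in 26 genes (0.528%), all with the higher change in rad3; none had the lower change past the threshold in limma, and 41 had it at an unadjusted p under 0.05 (0.833%). It differed from that of chk1 in 45 genes (0.914%), 34 higher (0.691%) and 11 lower (0.224%). Of the 83 genes that rose in rad3, 15 differed from wild type, 15 from cds1 and 15 from chk1, and 12 were lower past the threshold in each of these strains taken singly. Differences of at least 2-fold with the higher change in rad3 numbered 22 against wild type (0.447%), 23 against cds1 (0.467%) and 22 against chk1 (0.447%), and with the lower change 5 (0.102%), 0 and 6 (0.122%). The count against wild type was 22 without the averaged sample of wild type at 60 min and 23 without that of rad3 at 60 min.

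**Figure D3:**
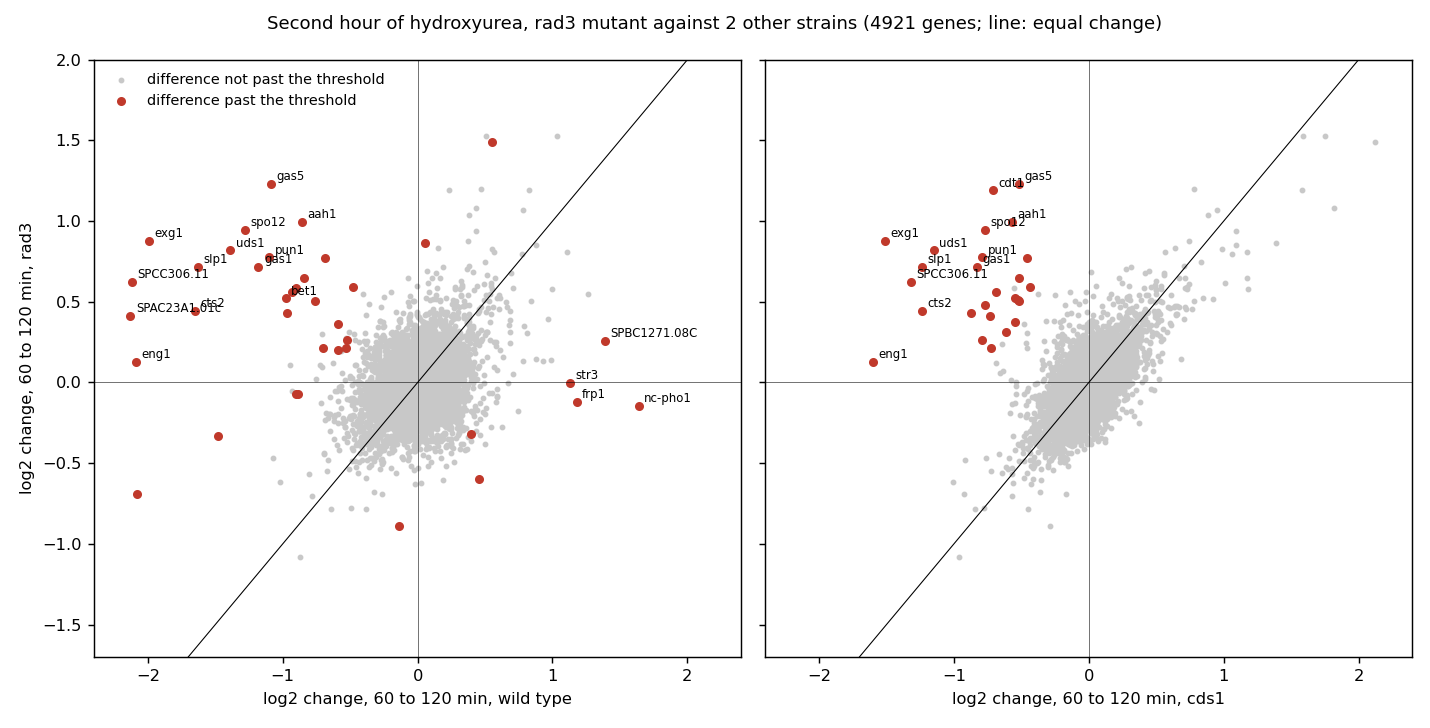
Log2 change from 60 to 120 min in rad3 (vertical axis) against that in wild type (left) and cds1 (right); each point is 1 of 4921 genes, red where the difference between the strains passed the threshold, and the diagonal marks equal change. Red points above the horizontal line and left of the vertical line are exg1, gas5, slp1, spo12, uds1 and their group; those at the right of the left panel, nc-pho1, frp1, str3 and SPBC1271.08C, rose in wild type and changed by -0.14 (nc-pho1) to 0.26 (SPBC1271.08C) in rad3.

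The genes with the lower change in rad3 were mostly genes that rose in wild type or chk1 and had small changes in rad3. The transcript annotated as nc-pho1 was at -0.09 and -0.23 in rad3 at 60 min and at -0.33, -0.40 and -0.20 at 120 min. In wild type it went from 0.82 ± 0.09 (n = 2) to 2.46 ± 0.09 (n = 3) and in chk1 from 0.83 ± 0.06 to 2.98 ± 0.16. Its difference was -1.78 ± 0.21 from wild type (adjusted p = 3.17e-08, limma) and -2.30 ± 0.21 from chk1 (adjusted p = 1.88e-11). In cds1 it was at -0.15 at 60 min and -0.30 at 120 min, and that difference did not pass. In rad3 sep1, with 1 sample a time and no test, nc-pho1 was at 1.26 at 60 min and 1.69 at 120 min. It was thus not low in both strains mutant for rad3.

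Of the 8 iron uptake genes 2 had a lower change in rad3 than in wild type past the threshold, beside 0.142% of all genes. The ferric reductase gene frp1 was at 0.56 and 0.39 and then at 0.28, 0.72 and 0.06 in rad3, with overlapping groups, and rose by 1.18 in wild type and 1.42 in chk1. Its difference was -1.30 ± 0.32 from wild type and -1.54 ± 0.32 from chk1. The siderophore transporter gene str3 stayed between -0.16 and 0.04 in the 5 rad3 samples and rose by 1.13 in wild type and 1.18 in chk1, with differences of -1.13 ± 0.25 and -1.18 ± 0.25. The calls of frp1 against wild type and of both str3 differences were lost without 1 or more single samples, among them replicate 2 of rad3 at 60 min, and under quantile normalization. The stress gene sro1 differed by -0.71 from wild type and -0.89 from chk1, and SPOM_SPBC1271.08C by -1.13 from wild type. Both wild-type calls were lost without either rad3 sample of 60 min. Against chk1 the differences were -1.28 for SPOM_SPAC1039.02, -1.14 for SPOM_SPAC27D7.11C, -0.93 for pho842, -0.84 for the histone H2B gene htb1 and -0.64 for the cysteine synthase gene cys11. Under quantile normalization the first 3 of these did not pass. Against cds1 the 5 with the smallest p, tif303, pho842, las1, snx3 and SPOM_SPAPB24D3.08C, did not pass.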

How the data were processed

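The deposited values were log2 ratios of Cy5 (sample) over Cy3 (untreated wild type), per the labels; the base was checked on the values, since 2 to their power gave a ratio of 3 decimals in 100% of cases (relative tolerance 1e-05). How the authors normalized the deposited log2 ratios was not stated in the sources used, and no scaling was added. The 2 probes of a gene were averaged per array, and 4921 of 4929 gene features with values on at least 2 arrays of each group were tested. Symbols were those of the platform annotation (4816 features had 1 symbol, 113 did not). The series text calls the repeats biological. In 9 of 65 array pairs within groups the difference of the arrays had r of -0.00233 to 0.0317 between probes, against 0.113 to 0.488 in the others. These pairs were averaged, which gave 61 samples in 25 groups.

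The 25 group means were estimated in limma 3.58.1 (lmFit, eBayes; R 4.3.3) from all 61 samples, which share 1 estimate of the spread. Tests were adjusted by the Benjamini-Hochberg method over all genes, with a threshold of 0.05, and differences between strains were contrasts of contrasts in that fit. An SE is that of the fit, and an SD is over samples. Precision is limited by the number of arrays. The script was tested on simulated data. Python 3.11.15 (pandas 2.3.3, numpy 2.4.6; figures with matplotlib 3.10.9) made the tables.

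The comparison, the 33 gene lists (24 symbols did not match) and the naming rule were chosen with earlier results of these data known. The rule named rad3, the 15 largest changes each way in rad3 without overlap between times, the 6 largest differences each way from each strain, up to 4 members with the smallest p of each of 15 described lists, and the 5 smallest p where fewer than 5 passed in a direction; other names are said to be chosen later. Results on 1 further list are not reported here. Histone and ribosomal protein genes include near-identical copies. Alternatives were 70 separate arrays, median centring, quantile normalization, other filters, probes and sets of samples in the fit, each sample left out, a block for the replicate number, array weights, robust eBayes, and a change of at least 1.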

Additional observations from a re-analysis of the deposited data

Results flagged for a closer look

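For 27 of the genes named above the second hour of rad3 differed from that of another strain, by a test of the difference itself (limma, adjusted over all genes, threshold 0.05). There were 54 such differences of single genes. All values are the log2 change of rad3 minus that of the other strain, and all share the rad3 samples.

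The genes given first had the higher change in rad3. For exg1 the difference was 2.87 from wild type, 2.39 from cds1 and 2.88 from chk1. For SPOM_SPCC306.11 it was 2.74, 1.94 and 2.64, and for SPAC23A1.01c 2.54, 1.15 and 2.42. For slp1 it was 2.35, 1.96 and 2.42, and for gas5 2.32, 1.75 and 2.38. For spo12 it was 2.23, 1.71 and 2.16, and for uds1 2.21, 1.97 and 2.83. For gas1 it was 1.90, 1.55 and 1.94, and for aah1 1.85, 1.56 and 1.72. For chs2 it was 1.46, 1.23 and 1.36, and for cdc15 1.27, 1.03 and 1.28. The gene adg1 differed from wild type by 1.39 and from chk1 by 1.32.

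Further genes with the higher change in rad3 were cdt1 at 1.90 and cdc22 at 1.03 from cds1, SPOM_SPCC663.08C at 0.94 from wild type, and mug135 at 0.76 from chk1. Genes with the lower change in rad3 were nc-pho1 at -1.78 from wild type and -2.30 from chk1, frp1 at -1.30 and -1.54, str3 at -1.13 and -1.18, and sro1 at -0.71 and -0.89. From wild type SPOM_SPBC1271.08C differed by -1.13 and tif303 by -0.75. From chk1 SPOM_SPAC1039.02 differed by -1.28, SPOM_SPAC27D7.11C by -1.14, pho842 by -0.93, htb1 by -0.84 and cys11 by -0.64.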

How the results depend on the processing

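The count of 114 genes in the second hour of rad3 was 316 with 70 separate arrays, 2 with quantile normalization (0 higher, 2 lower), 14 with only the groups compared in the fit, 44 and 51 on the first and second probe alone, 71 with every probe as its own feature, 255 with array weights and 11 at a change of at least 1. Leaving out 1 sample gave 27 to 97. Of the 30 largest changes, 13 were called without each sample and 28 were lost with quantile normalization. Against wild type 38 genes became 127 with 70 arrays, 15 with quantile normalization, 23 with only the groups compared, 25 on the second probe and 73 with array weights, and 22 to 44 without 1 sample. Against cds1 26 became 15 with quantile normalization, and 22 to 29 without 1 sample. Against chk1 45 became 91 with 70 arrays, 17 with quantile normalization, 26 on the second probe and 28 at a change of at least 1, and 30 to 51 without 1 sample. In the first hour 143 became 339 with 70 arrays, 83 with quantile normalization, 58 and 75 on single probes, 547 with array weights and 15 at a change of at least 1, and 35 to 110 without 1 sample. With a replicate block, fixed and then random, the counts were 282 and 249, 84 and 78, 46 and 42, 108 and 106, and 287 and 288, in the same order. Median centring, both other filters on missing values, only the strains compared in the fit, and robust eBayes moved none of these 5 counts by over 1.5 times. Samples of rad3 with the same number had r of deviations of 0.199, 0.363 and 0.0828, and those with different numbers -0.329 to 0.186. In the fit with the random block the consensus correlation of samples with the same number was 0.31. The main fit did not pair samples by number, and whether the numbers mark pairs was not tested. Counting near-identical arrays as 2 samples adds no new information. The other causes were not tested. The fall of the rad3 transcript against wild type at 60 min was -2.42 to -1.47 without 1 sample. With the fixed replicate block it was -1.26 at 60 min and -1.48 at 120 min, where the main fit gave -2.10. Both block values compare the strains at the level of replicate 1 and not as means over replicates. They are thus no check on the differences of means.

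Changes that turned sign were all of genes near zero or under another scale or probe: frp1 was -0.30 to 0.03 without 1 sample and 0.00 with array weights; str3 was 0.02 with 70 arrays and with array weights, 0.03 with median centring, 0.04 with quantile normalization, -0.06 to 0.06 without 1 sample, 0.06 on the first probe and every probe, and 0.00 with either block; snx3 was -0.12 to 0.03 without 1 sample and 0.03 on the second probe; hht1 was 0.05 on the first probe; hta2 was -0.09 with quantile normalization and -0.00 to 0.15 without 1 sample. With quantile normalization hsp9 was -0.08, psi1 -0.26 and rpn12 -0.03, and caf5 was -0.25 on its second probe. Called genes outside the naming rule also turned sign with quantile normalization: gpx1 was -0.01, fes1 -0.32 and SPOM_SPAC26F1.07 -0.05. These were named after their values were seen. The rad3 values at 60 min rest on 2 samples.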
